A study of Zea mays with 9 samples.

Results

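The basal endosperm transfer layer marker genes BETL1, bap2, meg2 and meg6 were followed in maize (Zea mays) endosperm, array by array. They were chosen by name: every probe set whose gene symbol or synonym in the platform or RefSeq annotation is 1 of these 4 names was taken. This gave 5 probe sets for 4 genes, out of 1108 genes that the platform annotation names by 1 symbol. On these Affymetrix arrays the signals of several short probes are joined into that of a probe set. BETL1 (Entrez gene 542477), bap2 (542570, also called betl2) and meg6 (542161) had 1 probe set each. The gene meg2 (100125634) had a pair, with the endings a_at and x_at, of which the a_at probe set was brighter and stands for the gene. RefSeq lists MEG6 among the synonyms of the meg2 gene, and the x in a probe set name marks probes that can bind related transcripts, so signals of the meg family may not be fully separate. The probe set IDs of meg2 and meg6 also share a cluster number, and whether they are separate genes was not settled here.

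Total RNA came from endosperm collected 15 days after pollination from 3 field-grown inbred lines, with 3 arrays per line that the labels call biological replicates. B73 is the line whose genome is the maize reference, the name ae wx stands for amylose extender and waxy, genes of a starch branching enzyme and of granule-bound starch synthase, and sh1 stands for shrunken1, a gene of sucrose synthase. The labels give no alleles and no relation of ae wx or sh1 to B73, so an effect of the named loci and any other difference between the inbred lines cannot be told apart. Nor do they say whether the replicates came from separate ears, so the p-values measure the spread between these RNA samples.

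The basal endosperm transfer layer is a sheet of cells at the base of the kernel, next to the maternal tissue, whose ingrown walls enlarge the surface through which sugars and amino acids enter the endosperm. Its cells secrete small cysteine-rich peptides. BETL1 encodes one of these, bap2 encodes a peptide of the basal layer antifungal protein group, and meg2 and meg6 belong to the maternally expressed gene family, named after meg1, a gene imprinted early in endosperm development that promotes transfer cell identity. In RNA of whole endosperm, fewer transfer cells and less RNA of a marker per cell cannot be told apart.

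The arrays had median signals of 241.2 to 256, and with 3 of them per line their number limits the precision. Zeins and starch genes of the starchy endosperm were bright on every array, with a summed signal of 12 genes between 149256 and 169461. The 23 array controls with no maize target set a background level, their mean plus 2 standard deviations (SD) on the same array, which lay between 100.4 and 141.5. Ratios of 3′ over 5′ actin signal, a sign of RNA quality, ran from 0.947 to 1.45 on the B73 arrays, from 1.34 to 1.60 for ae wx and from 1.401 to 1.68 for sh1. The same ratio for cyclophilin went the other way, from 1.17 to 1.46 on the B73 arrays against 1.01 to 1.07 for ae wx and 0.977 to 1.04 for sh1. That of GAPDH was 0.893 to 1.05 for B73 and ae wx and 1.36 to 1.42 for sh1, and that of EF1a was 2.10 to 2.31 for B73, 2.598 to 2.964 for ae wx and 2.36 to 2.51 for sh1. The part of RNA quality in the differences from B73 was not tested. B73 replicate 3 stood apart within its line, with 84 probe sets at least 2-fold above both other B73 arrays, against 29 in B73 replicate 2 and none in B73 replicate 1.

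All 4 marker genes were higher in ae wx and in sh1 than in B73, and none was called different between ae wx and sh1. The differences from B73 were 5.34-fold and 6.87-fold for meg2, at least 3.33-fold and 2.91-fold for bap2, 1.58-fold and 2.03-fold for BETL1 and 1.38-fold and 1.58-fold for meg6, in ae wx and sh1 respectively. A probe set was called at a limma adjusted p under 0.05, with values on the log2(signal + 16) scale. Fold changes between lines are given on this scale, on which changes of dim genes come out too small. The bap2 values are bounds for the line means, which replicate 1 of ae wx and of sh1 raised, and were not themselves tested. Among all 12414 probe sets tested, 29% were called higher in ae wx and 30.4% higher in sh1, so a call alone is common in these comparisons. The share of all probe sets whose arrays did not overlap between lines is not given here. A lack of overlap is therefore only a description of each gene, and whether it is particular to the markers was not tested. Differences of at least 2-fold upwards made up 7.32% and 8.65% of probe sets, and the median over all probe sets was 0.04 (log2) in both comparisons. These comparisons share the B73 arrays. Without B73 replicate 3 every marker was still called higher in both lines, with log2 differences of 0.74, 2.04, 2.22 and 0.60 for BETL1, bap2, meg2 and meg6 in ae wx and of 1.10, 1.85, 2.59 and 0.79 in sh1 (limma adjusted p at most 0.0232). This refit used the probe sets already kept, among which bap2 and meg2 had passed the low-signal filter through ae wx and sh1 arrays. No B73 array had bap2 above background, so its log2 differences are uncertain.

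**Figure D1:**
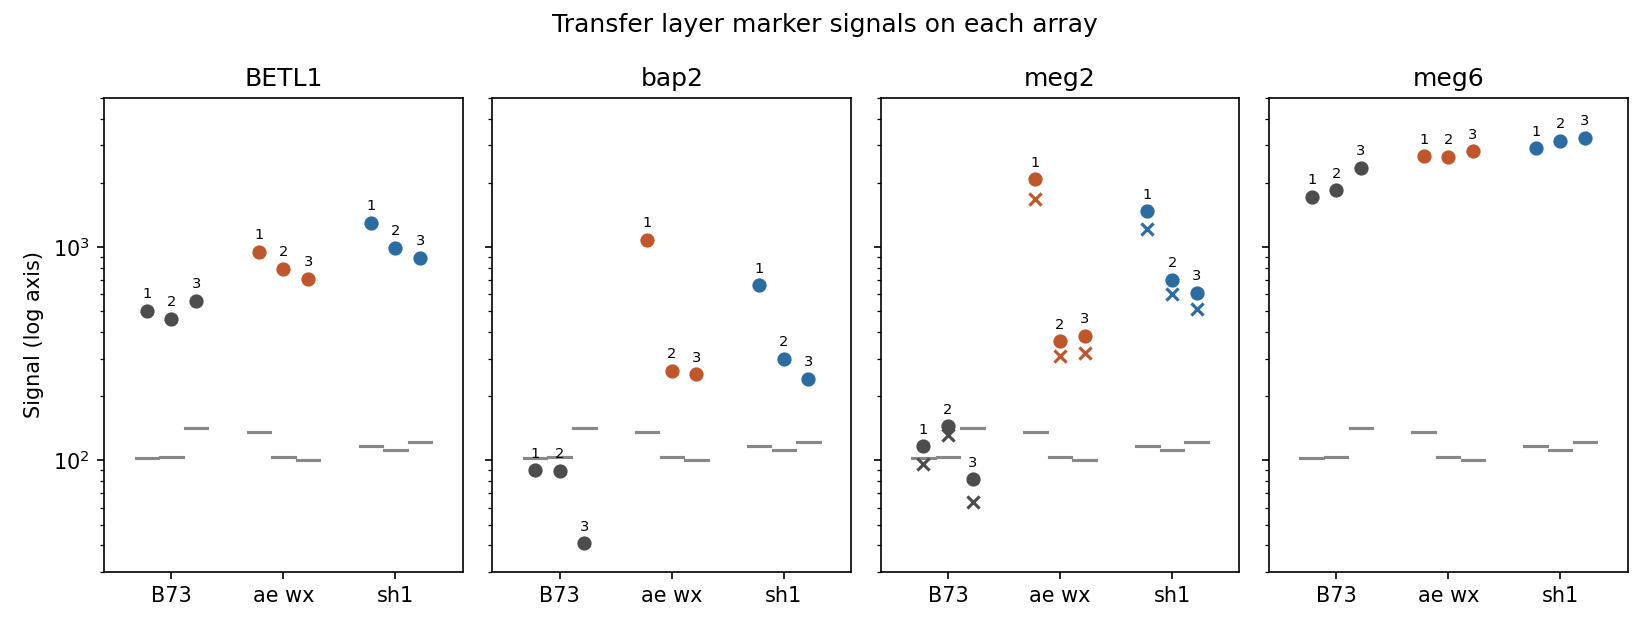
Signal of BETL1, bap2, meg2 and meg6 (log axis) on each of the 3 arrays of B73 (dark grey), ae wx (red-brown) and sh1 (blue). Numbers are replicates, circles are the probe set that stands for the gene, crosses are the second meg2 probe set, and short bars mark the background level of that array (100.4 to 141.5). In all 4 panels the B73 arrays lie below the ae wx and sh1 arrays, and replicate 1 of ae wx stands far above replicates 2 and 3 for bap2 and meg2 only.

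BETL1 read 503.3, 460.2 and 561.6 in B73 replicates 1, 2 and 3. It read 952.1, 791.6 and 710.5 in ae wx and 1297, 993.1 and 891.6 in sh1. Every array of either mutant line lay above every B73 array, while the ae wx and sh1 arrays overlapped. BETL1 was 1.58-fold higher in ae wx than in B73 (818.1 ± 123 and 508.4 ± 50.9, SD, n = 3, log2 difference 0.66 ± 0.16 SE, limma adjusted p = 0.00544). In sh1 it was 2.03-fold higher (1061 ± 211.2, log2 difference 1.02 ± 0.16 SE, limma adjusted p = 0.000393).

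The signal of bap2 was at the background level in B73, at 90.1, 89.4 and 40.9, none of which exceeded that level. It was 1080, 263.6 and 253.8 in ae wx and 661.8, 299.3 and 241.4 in sh1, all above it. The B73 arrays did not overlap with either of the other lines. In the fit on the signals as deposited, bap2 was called higher in ae wx (limma adjusted p = 0.00512) and in sh1 (limma adjusted p = 0.00764). Because B73 gives only a bound, bap2 was at least 3.33-fold higher in ae wx and at least 2.91-fold higher in sh1. These bounds were taken against the background level of the B73 arrays, 102.2 to 141.5, and were not themselves tested. They hold for line means on the log2 scale, raised by replicate 1 of each line, and not for each array. The line means were 73.4 ± 28.2 for B73, 532.5 ± 474.3 for ae wx and 400.8 ± 227.9 for sh1 (SD, n = 3). The filter on low signal, which asked for 20% of an array's trimmed mean on 3 arrays, was passed by bap2 through ae wx and sh1 arrays alone, so it had to differ from B73 to be tested.

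The meg2 signal read 116.7, 144.4 and 81.6 in B73, where 2 of the 3 arrays were above background, 2085, 362.2 and 383.2 in ae wx, and 1475, 704 and 611 in sh1. No B73 array reached the lowest ae wx or sh1 array, but the ae wx arrays spanned a 5.75-fold range that took in all 3 sh1 arrays. The gene was 6.87-fold higher in sh1 than in B73 (930 ± 474.3 against 114.2 ± 31.5, SD, n = 3, log2 difference 2.78 ± 0.60 SE, limma adjusted p = 0.00306). In ae wx it was 5.34-fold higher (943.4 ± 988.4, log2 difference 2.42 ± 0.60 SE, limma adjusted p = 0.00691). It too passed the filter through ae wx and sh1, since only 1 B73 array reached the level asked for.

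The x_at probe set of meg2 gave nearly the same pattern, though only 1 of its 3 B73 arrays was above background. Its signals were 96.2, 131.2 and 63.9 in B73, 1682, 310.2 and 317.2 in ae wx and 1219, 604.4 and 515.1 in sh1. Its log2 differences from B73 were 2.38 ± 0.59 (SE) in ae wx and 2.76 ± 0.59 in sh1 (limma adjusted p = 0.00698 and 0.00294). The 2 probe sets are built for the same transcript and are not independent.

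In contrast to meg2, meg6 was far above background in every line and varied little between replicates. It read 1724, 1844 and 2350 in B73, 2664, 2657 and 2810 in ae wx, and 2908, 3148 and 3258 in sh1. The 3 lines did not overlap with one another. The gene was 1.38-fold higher in ae wx than in B73 (2710 ± 86.1 against 1973 ± 332.4, SD, n = 3, log2 difference 0.47 ± 0.11 SE, limma adjusted p = 0.00671). In sh1 it was 1.58-fold higher (3105 ± 179.1, log2 difference 0.66 ± 0.11 SE, limma adjusted p = 0.000859).

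The log2 value of meg2 minus that of meg6, taken within each array, averaged −3.95 on the B73 arrays, −2.00 on those of ae wx and −1.83 on those of sh1. The gap between the genes was thus smaller in ae wx than in B73 by 1.95 and in sh1 than in B73 by 2.12, with no overlap of arrays in either case. An exact two-sided permutation test gave p = 0.1 for both, the smallest p that 3 arrays against 3 allow. Any pair of lines without overlap gives that p, so the test could not decide whether the gap differed. Between ae wx and sh1 the gap differed by −0.17 and overlapped (exact permutation p = 0.8). These gaps rest largely on the meg2 signals described above and are not a separate result. The gene meg2 passed the filter through ae wx and sh1. In B73 it was near background, above it on 2 of the 3 arrays, so the B73 value of −3.95 is uncertain.

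**Figure D2:**
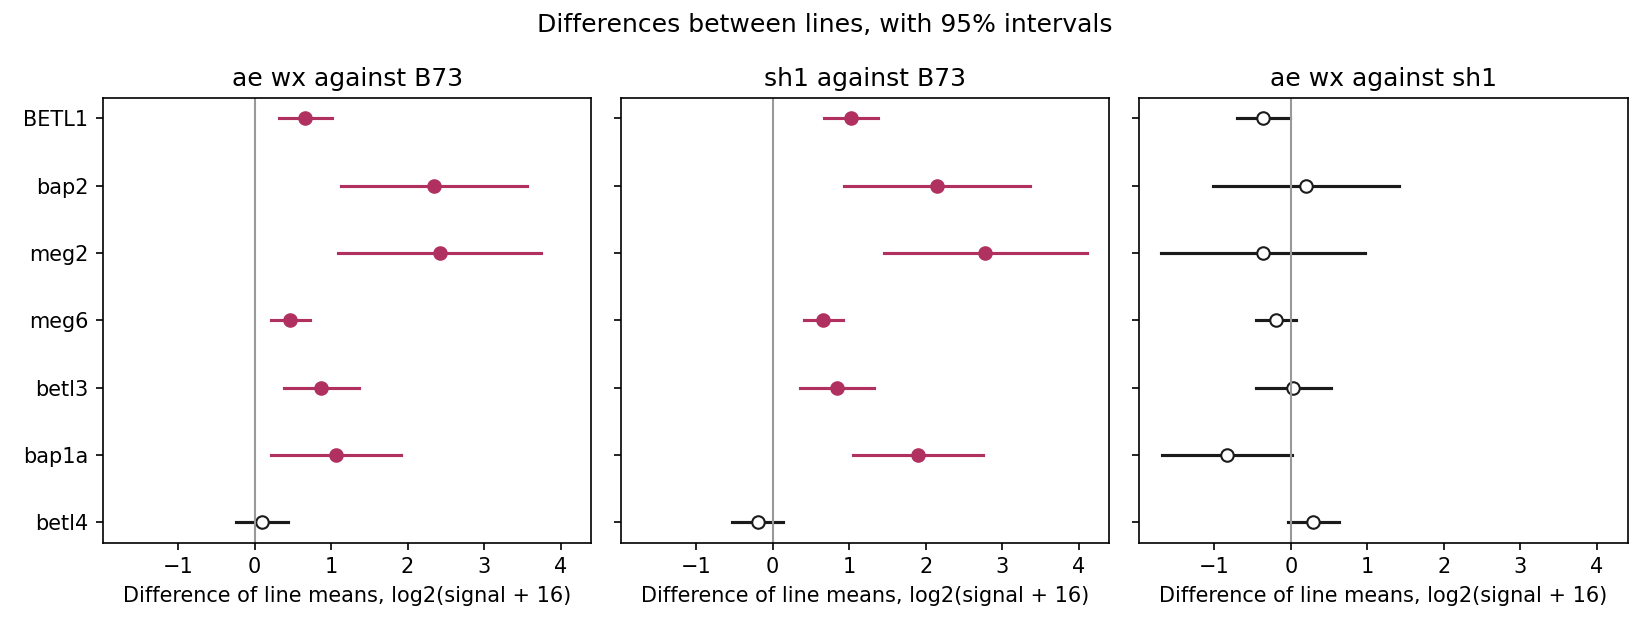
Difference of line means on the log2(signal + 16) scale for the 4 markers and 3 further transfer layer genes (points), with 95% intervals from the fit (bars), in the 3 comparisons. Filled points were called at an adjusted p under 0.05 and open points were not. The bap2 and meg2 intervals are the widest, and no gene is called between ae wx and sh1. Differences of bap2 and bap1a from B73 use B73 signals that were not above background.

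Between ae wx and sh1, where 36.6% of all probe sets were called in either direction, none of the 4 markers was. The log2 difference of ae wx from sh1 was −0.36 ± 0.16 (SE) for BETL1, with a 95% interval of −0.71 to −0.01 and a limma adjusted p of 0.0988. For meg6 it was −0.19 ± 0.11 with an interval of −0.45 to 0.06 (limma adjusted p = 0.219), although the arrays of the lines did not overlap. The intervals were −1.02 to 1.41 for bap2 and −1.69 to 0.97 for meg2 (limma adjusted p = 0.815 and 0.682), so differences of over 2-fold, in either direction for bap2 and downwards for meg2, lie within them. In order of mean signal, sh1 was highest, then ae wx, then B73 for BETL1 and meg6. For bap2 and meg2 the mean signal was highest in ae wx by a margin within the spread of its own arrays, and for meg2 the mean log2 value was highest in sh1. The x_at probe set of meg2 had its highest mean signal in sh1 (779.4, against 769.8 in ae wx).

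A single array carried much of the ae wx values of bap2 and meg2. In ae wx replicate 1, the meg2 signal was 5.44 times and the bap2 signal 4.10 times the higher of the other ae wx arrays, and that of BETL1 was 1.20 times the higher. In sh1 replicate 1 the same ratio of signals was 2.10 for meg2, 2.21 for bap2 and 1.31 for BETL1. The meg6 signal of replicate 1 was not the highest of its line in either case. On the log2(signal + 16) scale, 10 of 12414 probe sets (0.0806%) were at least 2-fold above both other arrays in ae wx replicate 1, and 8 (0.0644%) in sh1 replicate 1. Of the 10, 4 were transfer layer probe sets, the pair of meg2, bap2 and bap1a, and the other 6 have no name in the annotation. One of the unnamed, whose probe set ID carries the cluster number shared by meg2 and meg6, read 1977, 366.5 and 396.6 in ae wx. Of the 8 in sh1 replicate 1, 2 were transfer layer probe sets and 5 have no name in the annotation. The other was that of glb1, an embryo and aleurone gene, which read 758.3, 340.8 and 355.9 in sh1. In both groups were 2 probe sets, the a_at probe set of meg2 and that of bap2.

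**Figure D3:**
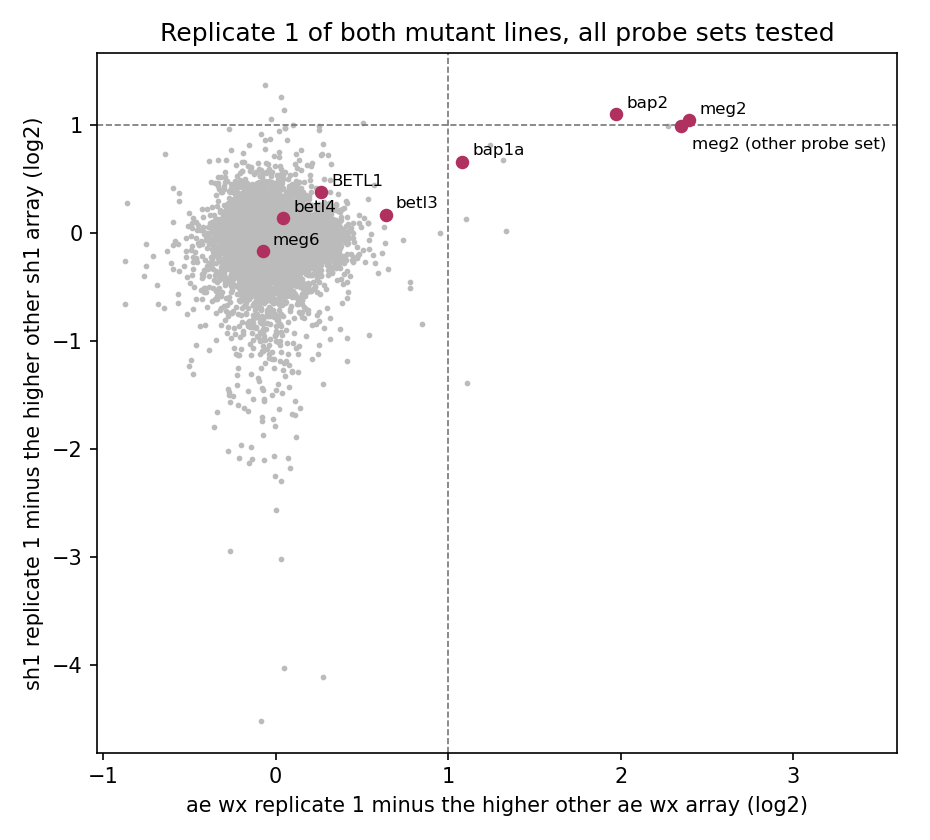
Each grey point is 1 of 12414 probe sets, placed by how far replicate 1 of ae wx (horizontal) and of sh1 (vertical) lay above the higher of the other arrays of its line, on the log2 scale. Dashed lines mark 2-fold, red points are probe sets of transfer layer genes, and the a_at probe set of meg2 and bap2 lie beyond both lines.

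Without ae wx replicate 1 the log2 difference of ae wx from B73 fell to 1.61 for meg2 and 1.68 for bap2, and both were still called (limma adjusted p = 0.00623 and 0.0105). Without that array meg2 was also called lower in ae wx than in sh1 (−1.17, limma adjusted p = 0.0354). It was called there as well with replicate 1 of both lines left out, a choice made after the values were seen (−0.79, limma adjusted p = 0.0333). With both of these arrays left out, all 4 markers were still called higher in ae wx and in sh1 than in B73, with log2 differences of 0.55, 1.68 and 1.61 for BETL1, bap2 and meg2 in ae wx and of 0.87, 1.73 and 2.40 in sh1. These refits used the same probe sets kept, and the bap2 differences from B73 rest on B73 signals that were not above background.

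**Figure D4:**
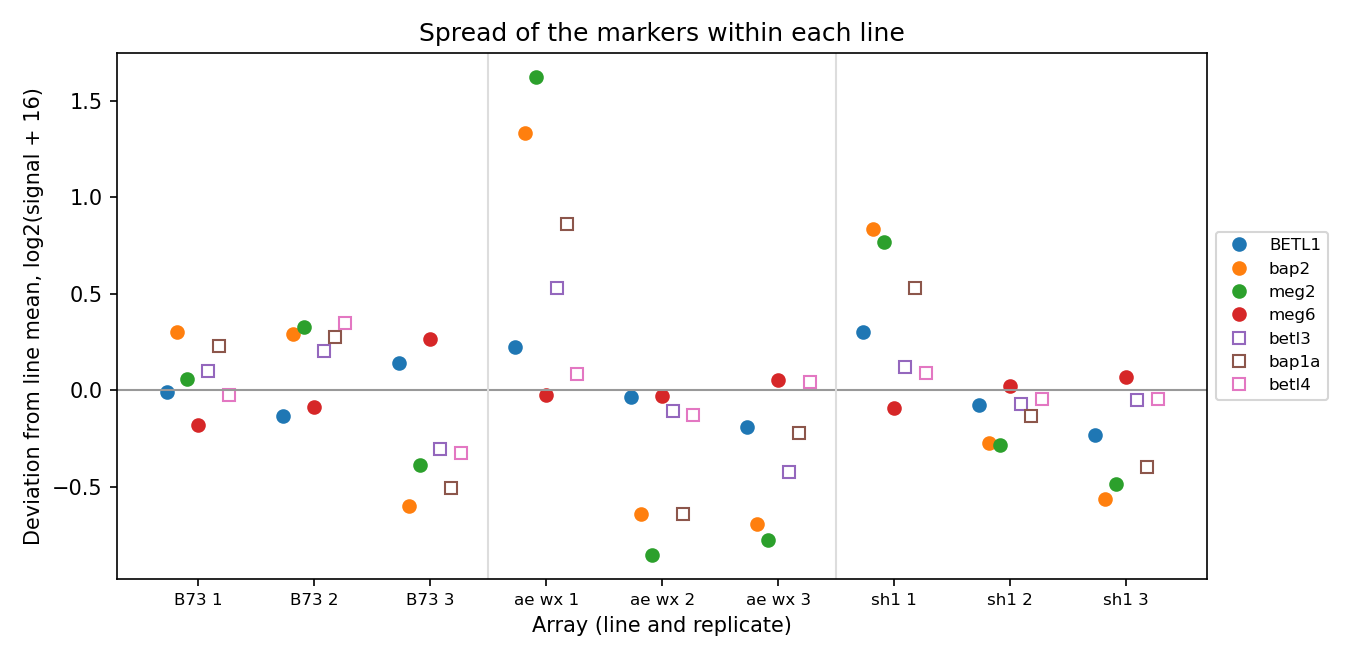
Deviation of each array from the mean of its line on the log2(signal + 16) scale, for the 4 markers (filled circles) and betl3, bap1a and betl4 (open squares). In ae wx and sh1, replicate 1 lies above the line mean for every gene shown except meg6, and in B73 replicate 3 bap2 and meg2 lie below it while BETL1 and meg6 lie above it.

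Further transfer layer genes were taken from a list of 30 names, of which 12 genes were found on the array, the 4 markers included. Of the other 8, only betl3, bap1a and betl4 passed the filter on low signal. The gene betl3, which encodes a small cysteine-rich peptide of the defensin kind, read 211.1, 228.3 and 156.1 in B73, 543.9, 344.2 and 273.4 in ae wx and 396.8, 345.6 and 350.3 in sh1. The B73 arrays were the lowest 3 of the 9. It was 1.83-fold higher in ae wx (log2 difference 0.87 ± 0.22 SE, limma adjusted p = 0.00762) and 1.79-fold higher in sh1 (0.84 ± 0.22, limma adjusted p = 0.00867).

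The gene bap1a encodes another peptide of the antifungal group. It read 71.8, 74.7 and 36.8 in B73, none above background, 269.2, 84.6 and 118.9 in ae wx, of which 2 were above it, and 386.9, 238.5 and 196.5 in sh1. Like bap2, it passed the filter through ae wx and sh1 arrays alone. In the fit on the signals as deposited it was called higher than in B73 in sh1 (limma adjusted p = 0.00204) and in ae wx (limma adjusted p = 0.0371). Against the background level of the B73 arrays, its line mean was at least 2.14-fold higher in sh1 and at least 1.20-fold higher in ae wx. These bounds were not themselves tested. The call in ae wx ended without ae wx replicate 1 or 3 (limma adjusted p = 0.128 and 0.0582) and without B73 replicate 1 or 3 (limma adjusted p = 0.055 and 0.107). Between ae wx and sh1 bap1a was not called (−0.83, limma adjusted p = 0.115), but it was lower in ae wx without ae wx replicate 1 (−1.26, limma adjusted p = 0.0169). The gene betl4, whose product resembles proteinase inhibitors, was not called in any of the 3 comparisons. It read 155.6, 205.8 and 123.5 in B73, 181.8, 154.9 and 176.4 in ae wx and 146.1, 131.2 and 131.3 in sh1 (limma adjusted p = 0.608 in ae wx and 0.28 in sh1 against B73). Without B73 replicate 3 it was called lower in sh1 than in B73 (−0.36, limma adjusted p = 0.0276).

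The remaining 5 genes stayed near or under the background level. The signal of bap1b reached at most 51.4 in the B73 arrays, 140.4 in those of ae wx and 183 in those of sh1. The genes bap3a and bap3b stayed below background on every array, with their highest signals, 59.2 and 66.2, in ae wx replicate 1. The genes ebe1 and ebe2, expressed in the basal endosperm and the region around the embryo, stayed between 68.7 and 120.6. In the RefSeq gene order bap1a and bap1b are direct neighbours, and bap3a and bap3b lie 2 genes apart.

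Over all 12 transfer layer genes on the array, 11 had their highest ae wx signal in replicate 1, and 10 had their highest sh1 signal in replicate 1. Of the 7 that passed the filter on low signal, replicate 1 was the highest for 6 in ae wx and for 6 in sh1. Over all 12414 probe sets replicate 1 was the highest of its line for 40.5% in ae wx and 38.8% in sh1. The summed signal of the 12 genes was 3100 to 3563 in B73. It was 8269, 4912 and 4977 in ae wx and 7712, 6225 and 5999 in sh1, so replicate 1 was the highest in both of these lines and no B73 array reached them. The largest part on every array came from meg6, at 1724 to 2350 in B73, 2657 to 2810 in ae wx and 2908 to 3258 in sh1. The sum thus largely restates the markers and is not a separate result.

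Genes for sugar entry at the kernel base gave mixed results, with sut1 called higher in both lines and mn1 in neither. The cell wall invertase gene mn1, which splits sucrose as it leaves the maternal tissue and is expressed in the basal endosperm, read 218.8 to 235.8 in B73, 201.6 to 256.8 in ae wx and 206.5 to 210.8 in sh1 and was not called in any comparison (limma adjusted p = 0.413 to 0.821). The sucrose transporter gene sut1 was 1.42-fold higher in ae wx (log2 difference 0.50 ± 0.09 SE, limma adjusted p = 0.00087) and 1.44-fold higher in sh1 than in B73 (0.53 ± 0.09, limma adjusted p = 0.000581). The invertase gene incw1 was lower in sh1 than in B73 (log2 difference −0.35 ± 0.12 SE, limma adjusted p = 0.028), a call that ended without B73 replicate 1 or 2 or sh1 replicate 1 or 3 (limma adjusted p = 0.0535 to 0.0953). It was also higher in ae wx than in sh1 (log2 difference 0.50 ± 0.12 SE, limma adjusted p = 0.00802), a call that ended with replicate 1 of both lines left out (limma adjusted p = 0.091). The gene incw3 did not pass the filter and read at most 89.5.

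Markers of other kernel parts moved between the lines too. The summed signal of 5 embryo and aleurone genes was 9934 to 14060 in B73, 7521 to 8092 in ae wx and 8981 to 10620 in sh1, where it overlapped with B73. Of the 4 genes that passed the filter, 3 were called lower in ae wx and 1 in sh1 than in B73. Over all 12414 probe sets tested, 3020 were called lower in ae wx and 3159 in sh1, so such calls are common too. For 4 genes of green and maternal tissue the sum was 2794 to 4875 in B73, far above the 356.4 to 399.9 of ae wx and the 325.5 to 374.4 of sh1. Of the 3 that passed the filter, 3 were called lower in ae wx and 2 in sh1, where psah1 was not (limma adjusted p = 0.0661). Most of the B73 sum came from HRGP alone, which read 3996, 3568 and 2341 there and at most 75.6 in ae wx and 41.3 in sh1. The gene rbcs1, which did not pass the filter, read 101.2 to 112.4 in B73 and 91.7 to 114.9 in the other lines. For both lists the lowest sum within B73 was that of replicate 3. The part of these tissues in the marker differences was not tested. Of the 12 starchy endosperm genes, 4 were called higher and 5 lower in ae wx than in B73, and 1 higher and 4 lower in sh1. The gene ESR1c1 of the embryo surrounding region was higher in ae wx than in B73 (log2 difference 0.36 ± 0.09 SE, limma adjusted p = 0.00768) and was not called in sh1 (0.16, limma adjusted p = 0.145). In ae wx replicate 1 the second gene of that region, esr2, read 249.5, against 64.9 and 69.1 on the other ae wx arrays and 59.6 to 85 in B73 and sh1, and it was too dim elsewhere to pass the filter.

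Likeness to other genes was taken as Pearson's r of log2(signal + 16) over the 9 arrays, as a description, since the arrays fall into 3 lines and a difference between lines alone gives high values. For bap2 the most alike of the named genes was betl3 (r = 0.969), followed by gl1, a gene of surface wax synthesis (r = 0.912), and MCK2 (r = 0.902). For meg2 they were betl3 (r = 0.96), bap1a (r = 0.945) and pip2d, a water channel gene of the plasma membrane (r = 0.909). For BETL1 they were frk2, a fructokinase gene (r = 0.967), asn1, an asparagine synthetase gene (r = 0.953), and pdi10, of the protein disulfide isomerase family (r = 0.945). For meg6 they were mad2, of the spindle checkpoint (r = 0.993), pcna2, the replication clamp (r = 0.992), and arf1 (r = 0.983). No transfer layer gene was among the 3 most alike for BETL1 or meg6. Among the 4 markers themselves r was highest for bap2 with meg2 (0.979) and lowest for bap2 with meg6 (0.601).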

How the data were processed

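The authors deposited a linear intensity (signal) for each probe set on each array. The submitters' processing notes list GCOS 1.4 without a role. For the summary algorithm, scaling and masks, details were not given in the sources used here. All 9 columns were used as deposited, since trimmed means (2% off each end) differed by 9.72% between arrays, under the 10% set for quantile normalization. Of 17734 probe sets, 113 array controls were left out, and 12414 reached 20% of the array's trimmed mean on at least 3 arrays. The test was limma 3.58.1 in R 4.3.3, on log2(signal + 16) (1 mean per line over all 9 arrays, eBayes with an intensity trend, two-sided, Benjamini-Hochberg over the probe sets kept). The fit was checked on simulated data. The brightest probe set stood for a gene. Names came from the platform annotation and RefSeq (Zm-B73-REFERENCE-NAM-5.0). No sequences are shown, and no coordinates, as the array's genome build is not named.

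The markers and lists were chosen with earlier results of these data known. The markers are always named, as are called genes of the transfer layer and sugar uptake lists and the 3 named genes most alike each marker. Genes described without a call, and esr2, were chosen after their values were seen. Other genes that carry a listed name as a synonym or symbol (MRP1, glb1, te1) were left out by hand. Replicate numbers are shared between lines, but 1 of 9 same-numbered pairs had deviations correlated above 0.1 (−0.231 to 0.136), so they were not treated as pairs. Alternatives covered the pseudocount, filter, scaling, arrays and weights.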

Additional observations from a re-analysis of the deposited data

How the results depend on the processing

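Each of the 4 markers stayed called higher in ae wx and in sh1 than in B73 under all 19 alternatives run, with adjusted p from 2.79e-05 to 0.0464. Apart from the run with no filter, every alternative used the same probe sets kept. Among these, bap2 and meg2 had passed the filter through ae wx and sh1 arrays, so their repeated calls are not independent of that choice. The log2 differences ran from 1.61 to 2.84 (meg2), 1.68 to 2.69 (bap2), 0.55 to 0.76 (BETL1) and 0.38 to 0.60 (meg6) in ae wx, and from 2.32 to 3.02, 1.67 to 2.43, 0.87 to 1.14 and 0.56 to 0.79 in sh1. The comparison of ae wx with sh1 was less settled. There meg6 was called with only the lines compared (−0.19, adjusted p = 0.0166) and with array quality weights (−0.22), which also called BETL1 (−0.28) and moved the count of probe sets called from 4544 to 8019. The sign of bap2 turned with sh1 replicates 2 and 3 averaged (−0.012) and with replicate 1 of both lines left out (−0.053), where meg2 was called (−0.79). Leaving out 1 array gave −0.47 to 0.61 for bap2 and −1.17 to 0.063 for meg2, with the sign of meg2 turned without ae wx replicate 2 or 3 or sh1 replicate 1. Single values turned sign without a call: sut1 in ae wx against sh1 with quantile normalization (0.026), median centring (0.017) or 1 array left out (−0.079 to 0.0018), betl4 in ae wx against B73 with array weights (−0.087) or 1 array left out (−0.064 to 0.27), betl3 in ae wx against sh1 with replicate 1 of both lines (−0.17) or 1 array (−0.23 to 0.24) left out, and mn1 in ae wx against B73 (−0.13 to 0.030, 1 array left out) and against sh1 (−0.036 to 0.13, and −0.034 with both replicates 1 left out). With array quality weights betl3 was not called in ae wx against B73 (adjusted p = 0.0527). The bap1a call in that comparison also ended with array weights (adjusted p = 0.176), a pseudocount of 64 (0.0513) and replicate 1 of both lines left out (0.0778). Leaving out both was chosen after seeing the data. With the replicate block, probe sets called numbered 6205, 6476 and 4020 in the 3 comparisons, against 6624, 6939 and 4544 without it, and no call of the 4 markers changed (meg2 in ae wx against B73 2.42, adjusted p = 0.00195), while bap1a was called in ae wx against sh1 (−0.83, adjusted p = 0.0343). That bap1a call was also made with array weights (adjusted p = 0.0182), without ae wx replicate 1 and with both replicates 1 left out. Array weights also called betl4 in sh1 against B73 (−0.41, adjusted p = 0.0228) and in ae wx against sh1 (adjusted p = 0.00282), the second also with only the lines compared (adjusted p = 0.0171). The causes were not tested. Signal near background limits bap2, bap1a and, in B73, meg2. It also limits betl4 and ESR1c1 in B73 and incw1 in B73 and sh1, where each was above background on only 2 of the 3 arrays.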
